A study of Danio rerio with 13 samples.

Results

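The genes described are those of Wnt signalling: the Wnt ligands, the R-spondins that amplify them, their receptors, their secreted antagonists and the intracellular proteins that pass the signal on. Members were chosen by symbol (names beginning with wnt and a digit, fzd and a digit, rspo, lrp5, lrp6, ror1, ror2, ryk, lgr4 to lgr6, sfrp, frzb, dkk, wif1, notum, dvl, axin, nkd, tcf7 or lef1). They number 77 of the 24438 gene IDs in the authors' deposited tables: 22 ligands, 3 R-spondins, 20 receptors, 13 antagonists and 19 intracellular genes. A gene ID stands for a gene, so the symbol nkd3 covers 4 members and wnt8a covers 2. Where a gene had several promoter windows, the one richest in H3K27me3 stood for it in both marks, for members and all other genes alike.

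Wnt ligands bind Frizzled receptors together with the co-receptors Lrp5 and Lrp6. In the canonical branch this stops the Axin complex from destroying beta-catenin, which then joins TCF and LEF factors on DNA. Other ligands act through Ror and Ryk receptors or Frizzled alone on cell polarity and movement. R-spondins bind Lgr receptors and keep Frizzleds at the cell surface, while Sfrp, Dkk, Wif1 and Notum proteins block the ligand or its co-receptor. Wnt signals act in several steps of heart formation, and many of the pathway's genes are silenced by Polycomb outside the tissues that use them.

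Chromatin immunoprecipitation and sequencing (ChIP-seq) was done on heart ventricle cells of adult TuAB zebrafish aged 1 to 1.5 years. For each of a pair of histone marks, 3 libraries came from resected hearts, 5 days after the ventricular apex was cut off, and 3 from uninjured hearts, and the series' other sample of 13, a mixed input DNA, was not used here. H3K4me3 lies at active promoters, and H3K27me3 is the mark of Polycomb repressive complex PRC2. The cells came from the apical part of the ventricle and were those held on a 10 micrometre mesh, which the labels call enriched cardiomyocytes. How many fish went into each library is not stated.

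The tables give 1 comparison per mark over windows of 4 kb around a start site, with no value for a single library. A level is the authors' mean normalised read count over the libraries of both conditions, and a change is their log2 fold change of resected over uninjured hearts. All 117 member windows are 4 kb wide, so levels can be set side by side between genes, although they hold background reads and depend on how well reads map. The p-values rest on 3 libraries per condition, which the design text calls biological replicates. Promoters of some cell types other than heart muscle carried H3K4me3 too, read here at the window of highest H3K4me3. The median level of 10 endocardial and endothelial marker genes was 241, and that of 15 cardiomyocyte marker genes 167. It was 119 for 9 erythroid marker gene IDs and 109 for 8 epicardial marker genes, against 94.0 over all nuclear genes. The medians of markers of fibroblasts and mural cells (67.1) and of leukocytes (65.9) lay below that gene median. The leukocyte median is over 27 gene IDs found for 15 listed symbols, so some symbols count more than once. Its genes differed widely, with 394 at cebpa and 40.6 at csf1ra, for example. Fewer cells of a type and less mark per cell cannot be told apart in such samples.

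By their median levels, ligand and antagonist promoters stood above the gene median in H3K27me3 and below it in H3K4me3, antagonists only slightly below. Receptor promoters stood far above the gene median in H3K4me3 and slightly above it in H3K27me3. The median H3K27me3 level was 76.8 at ligands and 83.7 at antagonists, against 63.3 at the receptors with reads and 60.9 over all 24075 nuclear genes with reads. The median H3K4me3 level was 39.9 at ligands and 51.0 at antagonists, against 183 at receptors and 56.4 over all 24416 nuclear genes. Of the 22 ligands, 18 lay above the gene median of H3K27me3 and 5 above that of H3K4me3. For the 13 antagonists these counts were 11 and 4, and for receptors they were 10 of 19 and 17 of 20. The levels of whole roles were described and not tested, because members of a family are not replicates.

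**Figure D1:**
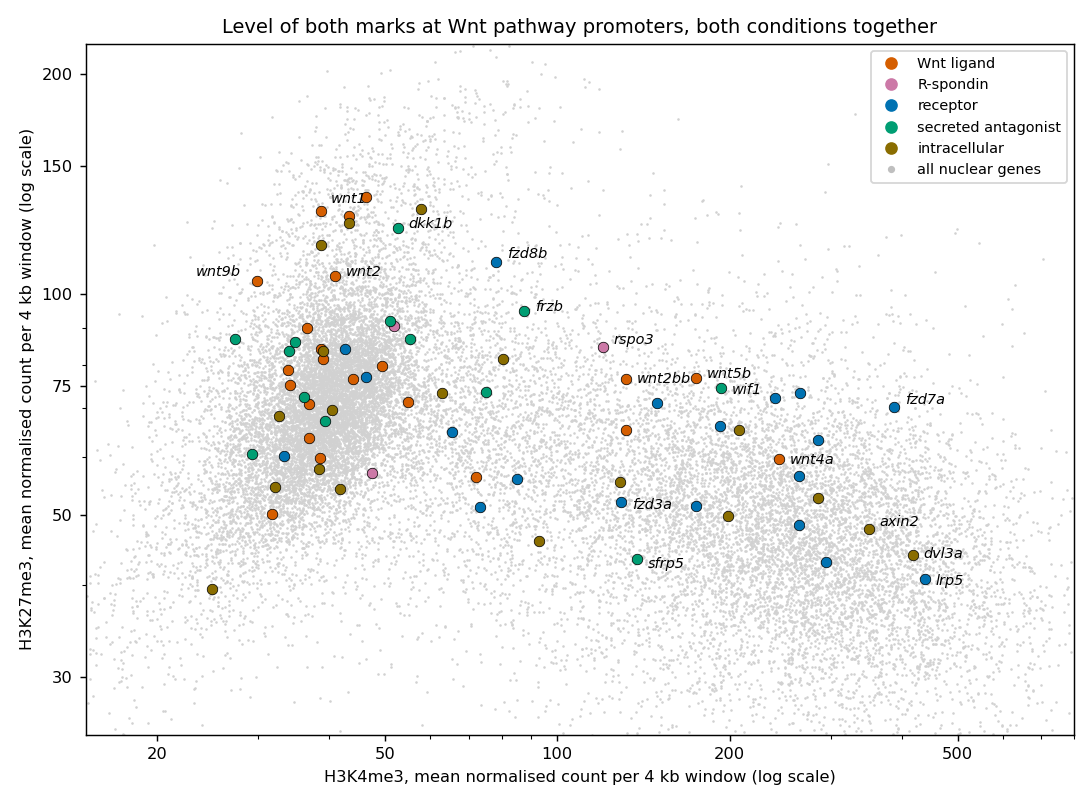
Mean normalised H3K4me3 count (horizontal, log scale) against mean normalised H3K27me3 count (vertical, log scale) per 4 kb window for 76 members, coloured by role, over all nuclear genes in grey; fzd4 has no H3K27me3 reads and genes outside the axes are not drawn. Ligands (orange, median H3K4me3 39.9) crowd the upper left and receptors (blue, median 183) the right.

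Among the ligands, H3K27me3 was highest over wnt8a, wnt1 and wnt2. The authors' deposited table gives levels of 136 and 128 for the 2 gene IDs of wnt8a, the ligand that patterns ventral and posterior mesoderm, whose windows overlap each other. It gives 130 for wnt1, the ligand of the midbrain and hindbrain boundary, 106 for wnt2 and 104 for wnt9b. These 5 gene IDs lay in the top 10% of all genes, above a level of 92.0. The lowest ligand levels of H3K27me3 in the authors' deposited table were 50.1 at wnt2ba and 56.4 at wnt11, a ligand of convergent extension during gastrulation. All 22 ligands thus spanned less than a 3-fold range.

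A few ligands departed from the family's low H3K4me3. The authors' deposited table gives H3K4me3 levels of 244 at wnt4a, 175 at wnt5b, a ligand of beta-catenin-independent signalling, and 132 each at wnt11r and at wnt2bb, which directs liver specification in zebrafish. Next came wnt11 with 72.1, and the other 17 ligands lay between 29.9 at wnt9b and 54.9 at wnt9a. The wnt2ba window had 31.7. The wnt4a window overlaps a window of a clone-named gene on the opposite strand, so its reads cannot be assigned to one gene. At wnt5b, wnt2bb and wnt11r the same windows also held H3K27me3 above the gene median, with 77.0, 76.5 and 65.2 in the authors' deposited table.

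The R-spondins differed among themselves. For rspo3 the authors' deposited table gives an H3K4me3 level of 120 with an H3K27me3 level of 84.7. For rspo2 it gives 51.8 of H3K4me3 with 90.6 of H3K27me3, and for rspo1 47.5 with 57.1. Only rspo3 of these 3 lay above the gene median of H3K4me3. Its level of 120 averages both conditions, and H3K4me3 at rspo3 was 3.28-fold higher after resection. The level in uninjured hearts alone is therefore lower than 120 and is not listed, so the 3 genes were not compared there.

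At the represented windows, receptor promoters had the highest median H3K4me3 of the 5 roles. The highest levels in the authors' deposited table were 479 at fzd4, the Frizzled that in mammals also binds Norrin, 438 at the co-receptor gene lrp5 and 388 at fzd7a, a Frizzled of gastrulation movements. The lowest were 33.3 at ror1 and 42.6 at fzd3b, each measured at a window other than its window of highest H3K4me3. In H3K27me3 the receptor fzd8b stood out with 111, ahead of fzd3b with 84.1 and ryk, a Wnt-binding receptor related to kinases, with 77.2. The lowest H3K27me3 levels were 40.8 at lrp5 and 43.1 at fzd7b in the authors' deposited table. The fzd4 window is listed at 0, and so are all 364 windows on unplaced scaffolds, while none of the other windows is. That 0 was therefore not read as a level, and H3K27me3 was described for the other 76 members.

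Most antagonists combined H3K27me3 above the gene median with H3K4me3 below it. The Dickkopf gene dkk1b, whose product blocks Lrp6, had the highest H3K27me3 of the antagonists at 123 in the authors' deposited table. It was followed by frzb, a secreted Frizzled-related protein, with 94.8, and dkk2 with 92.0. The lowest were sfrp5 with 43.5 and dkk3a, a divergent Dickkopf, with 60.4. In H3K4me3 the order of the authors' deposited table ran from wif1, a Wnt-binding protein, with 193, sfrp5 with 138 and frzb with 87.5 down to dkk3a with 29.2 and notum1b, which encodes an enzyme that inactivates Wnts, with 27.3. The wif1 window overlaps that of lemd3 on the opposite strand, so its H3K4me3 cannot be assigned to wif1 alone. Both marks were above the gene median at frzb, wif1 and dkk3b, and sfrp5 was the antagonist with H3K4me3 above and H3K27me3 below it.

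The intracellular genes split by family. None of the 5 Dishevelled genes (dvl), which relay the signal from Frizzled, lay above the gene median of H3K27me3. At the represented windows 4 of the 5 lay above that of H3K4me3, led by dvl3a with 417 and dvl2 with 285. The other is a DVL1 gene represented by a downstream window. Its upstream window, which overlaps that of a clone-named gene, held 451 of H3K4me3. The dvl3a window overlaps that of a clone-named gene. For axin2, a negative regulator and common target of the pathway, the authors' deposited table gives 350 of H3K4me3 and 47.8 of H3K27me3. Genes of the Naked cuticle family (nkd), which bind Dishevelled, stood higher in H3K27me3: 6 of 7 lay above its gene median, and 3 of 7 above that of H3K4me3. The 4 gene IDs of nkd3 have 6 windows within 30.7 kb on chromosome 19, some of which overlap, with H3K27me3 levels from 68.3 to 131. The highest, with 131, 125 and 117 in the authors' deposited table, were the top intracellular values. The lowest intracellular levels were 39.5 of H3K27me3 and 24.9 of H3K4me3, both at a downstream window of a DVL1 gene, then 44.1 of H3K27me3 at dvl3a and 32.1 of H3K4me3 at tcf7l1b.

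Across 76 members the rank correlation between the levels of H3K4me3 and H3K27me3 was -0.34 (Spearman), against -0.39 over 24075 genes. This describes windows that share libraries and depth within each mark.

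At some members with several windows, the windows differed far more in H3K4me3 than in H3K27me3. Of the 77 members, 27 had several windows, and in 8 of these (29.6%) H3K4me3 differed more than 5-fold between windows, against 2092 of 10705 nuclear genes with several windows (19.5%). H3K27me3 never differed more than 1.61-fold between windows of a member. It is also the mark of narrower range over all nuclear genes, with quartiles of 47.2 and 75.3 against 38.6 and 206 for H3K4me3. How far H3K27me3 differs between windows was not computed over all genes. At rspo2 the windows differed 1.20-fold in H3K27me3 and 1.17-fold in H3K4me3. The largest contrast was at tcf7l1a, a TCF that mostly represses Wnt targets. The authors' deposited table gives its most upstream window an H3K4me3 level of 706 and the window 95.1 kb downstream 40.4, with H3K27me3 at 62.3 and 69.5. The tables hold the same pattern at tcf7l1b (443 upstream and 32.1 downstream), tcf7l2 (438 and 38.3), a DVL1 gene (451 and 24.9) and ryk (322 and 46.3). At axin1, the scaffold of the beta-catenin destruction complex, overlapping windows that start 3.39 kb apart held 560 and 41.7, and both overlap a window of a clone-named gene. At lrp6 and wnt5b the represented window was the one rich in H3K4me3. In all 8, the window with the most H3K4me3 was at the upstream end.

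**Figure D2:**
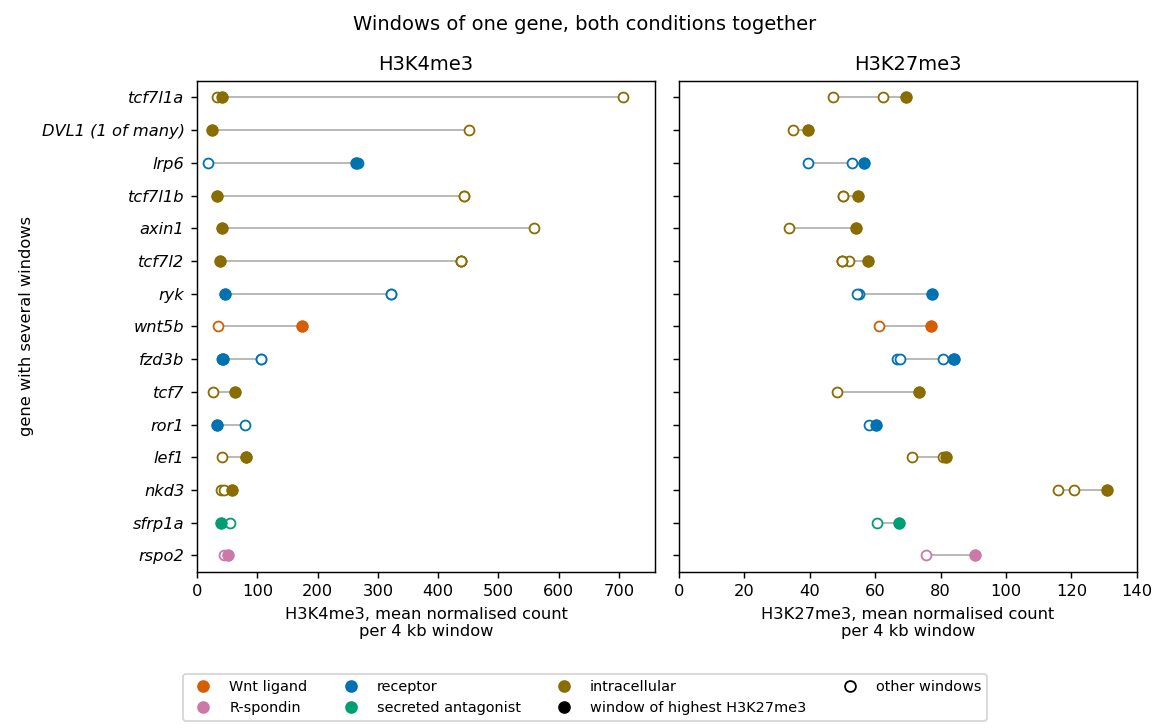
Mean normalised count per 4 kb window of H3K4me3 (left) and H3K27me3 (right) at each window of the 14 members whose windows do not all overlap, and of axin1; filled points are the windows of highest H3K27me3 that represent the gene elsewhere. H3K4me3 spreads up to 21.0-fold within a gene (tcf7l1a) and H3K27me3 up to 1.61-fold (axin1).

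The choice of window therefore sets the H3K4me3 level of the TCF genes. With the window of highest H3K27me3, the 5 TCF and LEF genes had a median of 40.4, whereas tcf7l1a, tcf7l1b and tcf7l2 have upstream windows at 706, 443 and 438. At the window of highest H3K4me3 the intracellular median was 198, against 57.7 at the represented window, and came close to the receptors' 216. Over all nuclear genes the median at that window was 94.0, and ligands (39.9) and antagonists (52.6) lay below it.

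Most members named as a and b pairs differed more in H3K4me3 than in H3K27me3. The fzd7, tcf7l1, sfrp1 and wnt6 pairs went the other way. Most of the a and b pairs are duplicates from the genome duplication of teleost fish. However, wnt5a and wnt5b, and wnt9a and wnt9b, are separate genes in mammals as well. Over all nuclear genes, too, H3K4me3 was the wider in range, with quartiles of 38.6 and 206 against 47.2 and 75.3 for H3K27me3. Of 15 pairs, 8 differed more than 2-fold in H3K4me3 and 0 in H3K27me3. The widest was wnt4a over wnt4b, 6.62-fold (244 and 36.9 in the authors' deposited table), though the wnt4a reads cannot be assigned to wnt4a alone. It was followed by wnt5b over wnt5a (4.74-fold), wnt2bb over wnt2ba (4.15-fold), fzd9b over fzd9a (3.12-fold), fzd8a over fzd8b (3.07-fold) and fzd3a over fzd3b (3.03-fold). The last of these shrank to 1.21-fold when each gene was read at its window of highest H3K4me3. In H3K27me3 the widest were fzd7a over fzd7b (1.63-fold), fzd3b over fzd3a (1.62-fold), fzd8b over fzd8a (1.54-fold), wnt2bb over wnt2ba (1.53-fold), wnt9b over wnt9a (1.46-fold) and dkk1b over dkk1a (1.43-fold). The gene richer in H3K4me3 was the poorer in H3K27me3 in 7 of 15 pairs, among them wnt4, fzd8 and fzd3.

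**Figure D3:**
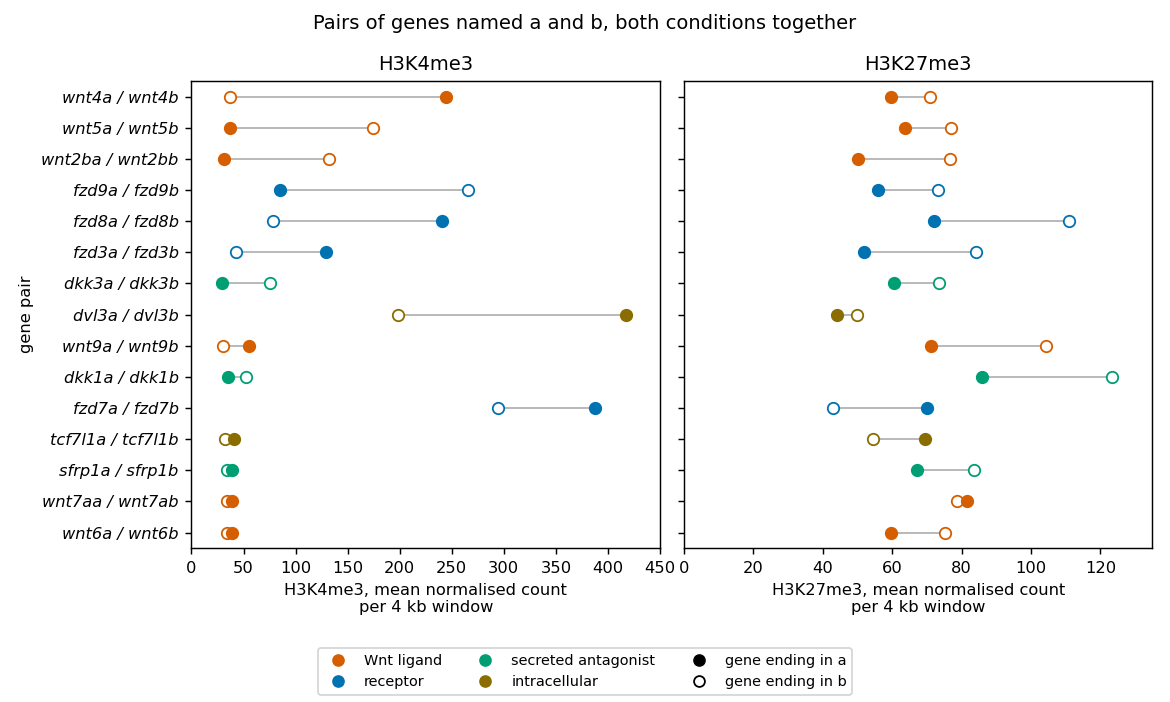
Mean normalised count per 4 kb window of H3K4me3 (left) and H3K27me3 (right) for 15 gene pairs, ordered by the ratio in H3K4me3; filled points are the gene ending in a, open points the gene ending in b. In H3K4me3 8 pairs lie more than 2-fold apart, and in H3K27me3 none does.

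After resection, H3K4me3 rose at rspo3 and fell at fzd3a and fzd4, and no other member was called. The threshold was an adjusted p under 0.05 in the authors' test, whose columns are those of DESeq2. They gave an adjusted p to 40 of the 77 members, those with a level above about 51.8. Of these 40, 1 (2.5%) was higher, against 1.57% of 12899 nuclear genes, and 2 (5%) were lower, against 1.30%. Of the 22 ligands only 6 had an adjusted p, so the deposited test is silent on most of them. The median log2 fold change was -0.11 over all members and 0.00 over all nuclear genes.

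The gain at rspo3 was the largest H3K4me3 change among the members. This R-spondin gene (ENSDARG00000070081) has 1 window, on chromosome 16 at 40349025 to 40353024 on the plus strand. Which genome build these positions refer to is not stated. The authors' deposited table gives a log2 fold change of 1.71 (SE 0.26, adjusted p = 4.04e-07 in their DESeq2 test), or 3.28-fold, with a 95% interval of 1.20 to 2.23 from the standard error. The other R-spondins had 0.20 (rspo2, SE 0.29) and -0.18 (rspo1, SE 0.29) and no adjusted p. Their 95% intervals lie below that of rspo3, but they have fewer reads. Standard errors of H3K4me3 reach at most 0.30, also at windows of few reads, so these intervals may be too narrow to compare the genes. The difference between the genes was not tested. H3K27me3 at rspo3 had a log2 fold change of 0.24 (SE 0.41, unadjusted p = 0.549 in the authors' deposited table). In the H3K4me3 comparison 4 of 8 epicardial marker genes (BNC1, tbx18, wt1a and wt1b) rose and 0 fell. All 8 had an adjusted p and an H3K4me3 log2 fold change above 0, and none had an H3K4me3 level of 0. Of 27 leukocyte marker gene IDs, 17 had an adjusted p and 7 rose. Among 9 erythroid ones, 7 had an adjusted p and 4 rose. Of 12 markers of fibroblasts and mural cells, 7 had an adjusted p, 1 rose and 1 fell. Over all nuclear genes with an adjusted p, 1.57% were called higher and 1.30% lower. The part of these cells in the gain at rspo3 was not tested.

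Receptors leaned towards less H3K4me3. Of 20 receptor genes 15 had a log2 fold change below 0 (75%), against 49.4% of all nuclear genes, and the receptors' median was -0.21. At fzd3a, a Frizzled of planar cell polarity and axon guidance, the authors' deposited table gives -1.02 (SE 0.26, adjusted p = 0.00757 in their DESeq2 test), with a 95% interval of -1.54 to -0.51. Its 3 windows start within 12 bases of each other on chromosome 20 and are all called, and the represented one spans 35341282 to 35345281 on the minus strand (ENSDARG00000021664). At fzd4 (ENSDARG00000104117, on an unplaced scaffold) the authors' deposited table gives -0.72 (SE 0.21, adjusted p = 0.0316), with a 95% interval of -1.13 to -0.30. When p-values were adjusted over every window, with no filter on low counts, fzd4 had an adjusted p of 0.0516 and was not called, while fzd3a (0.0123) and rspo3 were.

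Other receptors followed without passing the test. The authors' deposited table gives -0.64 for fzd9b (adjusted p = 0.180), -0.49 for fzd10 (0.549), -0.48 for LGR4, a receptor of R-spondins (0.372), -0.47 for fzd7a (0.340) and -0.37 for fzd7b (0.641). The co-receptor genes lrp5 and lrp6 each had -0.23. On the other side stood FZD9 (1 of many) with 0.61 (adjusted p = 0.358) and its relative fzd9a with 0.49 (0.522). The fzd9a and fzd9b pair thus lay on opposite sides of 0, a difference that was not tested. In the same comparison 7 of 15 heart muscle markers fell, 0 rose and 13 lay below 0, and 12 had an adjusted p. Of 10 endocardial and endothelial markers 3 fell (kdr, kdrl and nfatc1) and 9 lay below 0, and 8 had an adjusted p. No marker of either list had a level of 0, and their part in the receptors' change was not tested.

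At the windows that stand for them, no ligand passed an adjusted or an unadjusted p of 0.05 for H3K4me3. The 22 log2 fold changes ran from -0.41 at wnt11r to 0.41 at wnt5a, and 14 lay below 0. The authors' deposited table gives 0.41 (SE 0.26, adjusted p = 0.625) for wnt2bb, the ligand with the largest Wald statistic (the log2 fold change over its standard error), and 0.29 for wnt4b and 0.26 for wnt7aa. For the ligands with the most H3K4me3 it gives -0.27 (SE 0.23) for wnt4a and -0.06 (SE 0.24) for wnt5b. At the median standard error of ligands, 0.30, a log2 change within 0.58 of 0 lies inside a 95% interval. Standard errors of H3K4me3 stay this small at windows of few reads, so for most ligands that limit may be too narrow. One of the wnt8a gene IDs has a further window, 1.84 kb upstream, with -0.79 (unadjusted p = 0.00755 in the authors' DESeq2 test) and no adjusted p. That window overlaps windows of tmsb2 and of a clone-named gene on the same strand, so its reads cannot be assigned to wnt8a alone.

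Antagonists showed no common direction. H3K4me3 was nominally higher at 8 of the 13 and lower at 5, and the median log2 fold change was 0.06. The largest losses in the authors' deposited table were -0.77 at sfrp5 (SE 0.26, adjusted p = 0.0856), just outside the threshold, and -0.62 at sfrp1a, which has no adjusted p there. Its second window, 36.5 kb downstream, had 0.52. On the gaining side were notum1b with 0.41, notum2 with 0.39, dkk3b with 0.34 and sfrp2 with 0.30, none of them past the test. Another window of notum2, which overlaps the represented one and has an H3K4me3 level of 38.5, had -0.01. The 2 notum genes had levels of 27.3 and 36.1, below the counts that got an adjusted p.

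No intracellular gene passed the test. The authors' deposited table gives -0.75 for nkd2b (SE 0.28, adjusted p = 0.135), -0.69 for lef1 (SE 0.28, adjusted p = 0.222) and -0.53 for tcf7l1b at its downstream window, where it has no adjusted p. The upstream window of tcf7l1b, with more H3K4me3, had -0.22. For axin2, often read as a reporter of canonical signalling, it gives -0.01 (SE 0.23), with a 95% interval of -0.46 to 0.45. The Dishevelled genes lay between -0.20 (dvl2) and 0.18 (dvl3a). At an unadjusted p under 0.05, members counted 2 higher (2.60% of 77, against 3.76% of genes) and 9 lower (11.7%, against 4.28%), the 9 being fzd3a, fzd4, sfrp5, nkd2b, fzd9b, lef1, fzd7a, sfrp1a and LGR4.

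**Figure D4:**
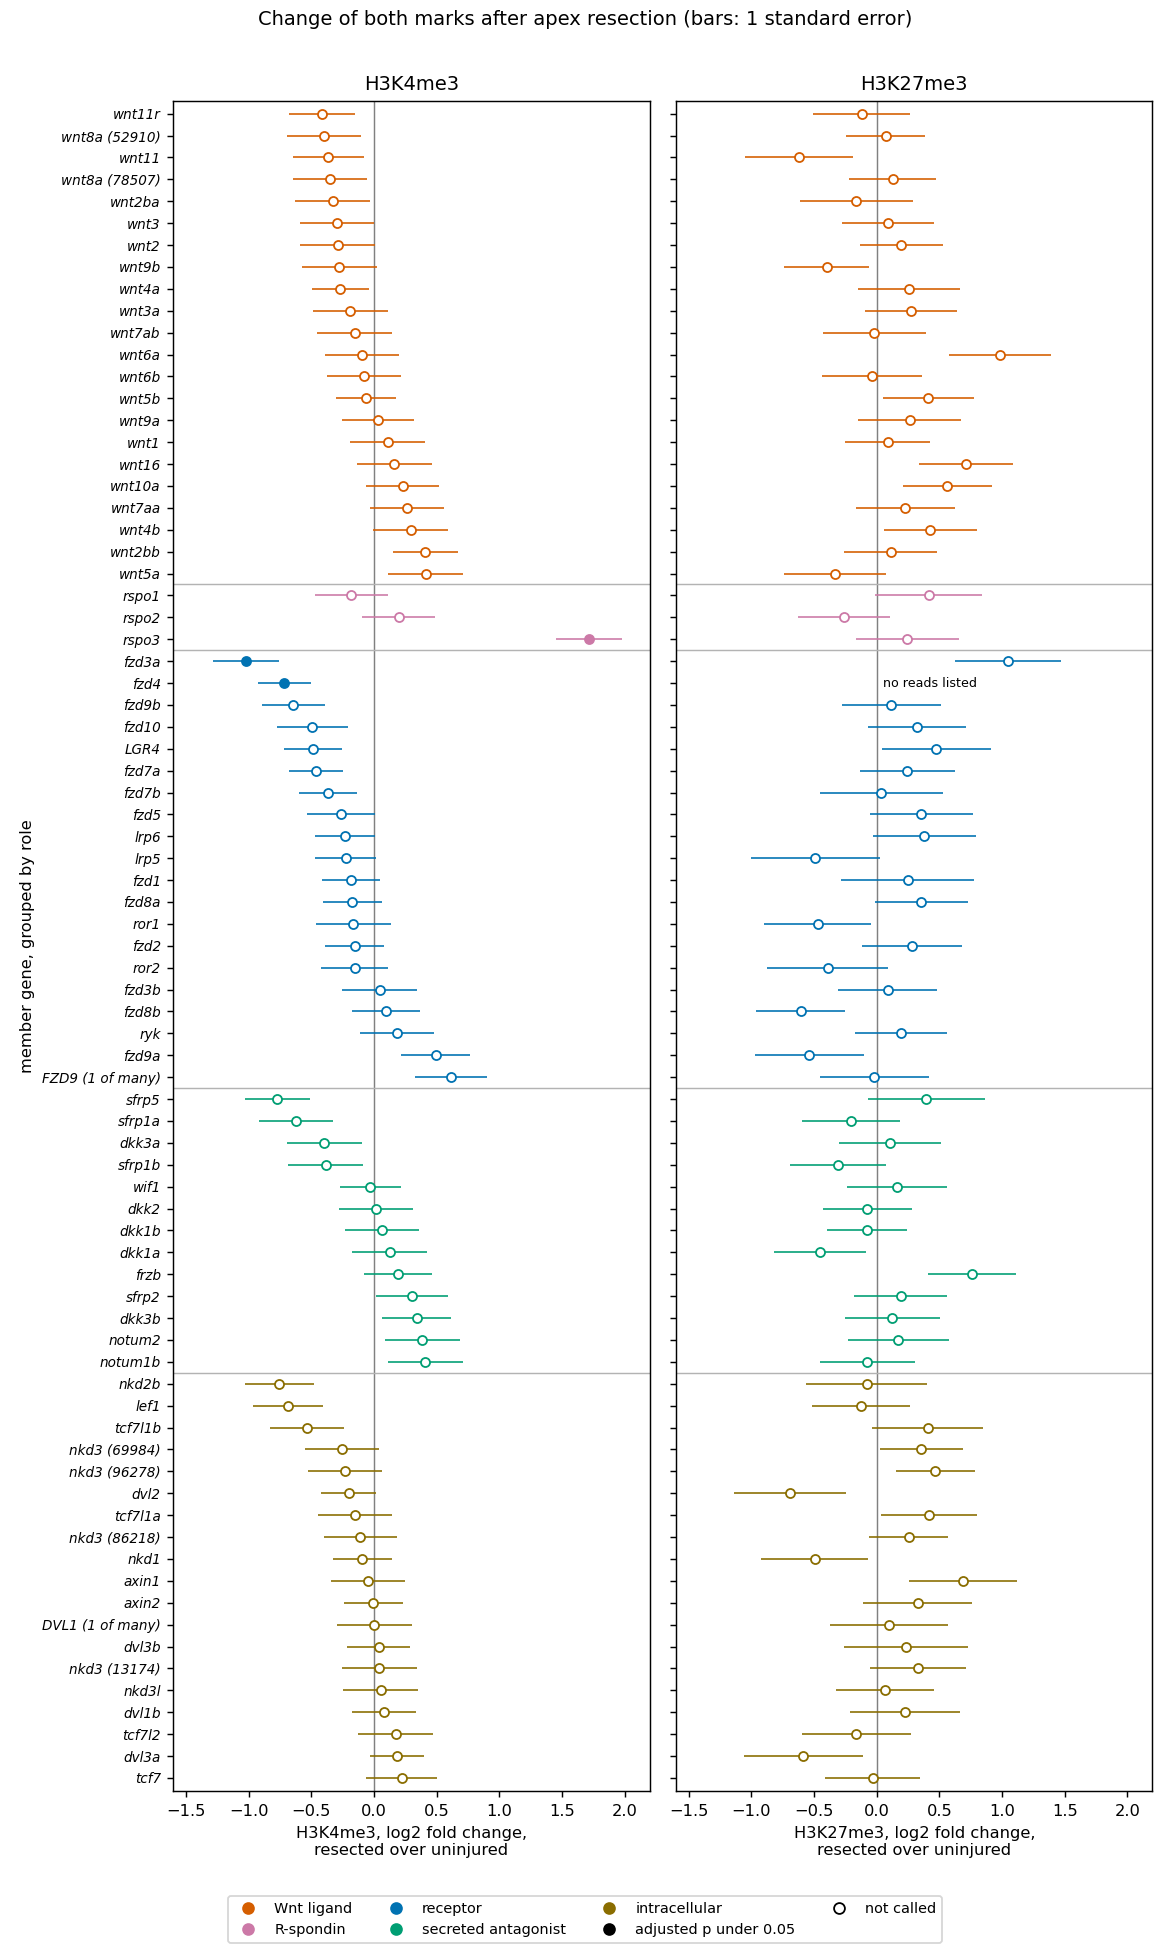
Log2 fold change of H3K4me3 (left) and H3K27me3 (right), resected over uninjured hearts, at each of the 77 members, grouped by role and ordered by H3K4me3; bars are 1 standard error, and filled points were called at an adjusted p under 0.05. Members that share a symbol carry the last digits of their gene ID. For H3K4me3 rspo3 (1.71), fzd3a (-1.02) and fzd4 (-0.72) are filled, and for H3K27me3 no point is.

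H3K27me3 leaned upwards after resection with no member called. Of 76 members with reads, 49 (64.5%) had a log2 fold change above 0, against 52.3% of 24075 nuclear genes, and the median was 0.13, against 0.02. The share above 0 was 68.2% at ligands, 68.4% at receptors, 63.2% at intracellular genes and 53.8% at antagonists. No gene at all was called (0% higher and 0% lower in the authors' DESeq2 test). At an unadjusted p under 0.05, members counted 3 higher (3.95%, against 1.15% of genes) and 0 lower (against 1.74%).

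The 3 were fzd3a, wnt6a and frzb. In log2 fold change, the authors' deposited table has 1.05 for fzd3a (SE 0.42, unadjusted p = 0.0126), 0.98 for wnt6a (SE 0.40, unadjusted p = 0.0151) and 0.76 for frzb (SE 0.35, unadjusted p = 0.0293). Their deposited adjusted p is 1.00 each. By Wald statistic, next came wnt16, a ligand that blood stem cell formation needs in zebrafish, with 0.71, axin1 with 0.69 and wnt10a with 0.56. After them came an nkd3 gene ID with 0.47, wnt4b with 0.43, wnt5b with 0.41 and tcf7l1a with 0.42. The windows of highest H3K4me3 had an H3K27me3 log2 fold change of 0.17 at axin1 and -0.06 at tcf7l1a. Downwards, again by Wald statistic, the authors' deposited table leads with fzd8b (log2 fold change -0.61, SE 0.35, unadjusted p = 0.0861), the receptor with the highest H3K27me3. It goes on with dvl2 (-0.69), wnt11 (-0.62), dkk1a (-0.45), fzd9a (-0.54), dvl3a (-0.59), wnt9b (-0.40), nkd1 (-0.49), ror1 (-0.47) and lrp5 (-0.49). At the members' median standard error of 0.40 a log2 change of less than 0.78 lies within a 95% interval around 0, before any adjustment.

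Of all members, fzd3a was the one with an unadjusted p under 0.05 in both marks, with H3K4me3 lower and H3K27me3 higher. Its levels were 129 of H3K4me3 and 52.0 of H3K27me3 in the authors' deposited table. In direction alone, 30 of 76 members (39.5%) had lower H3K4me3 with higher H3K27me3, against 27.2% of genes. Receptors held 11 of these among 19 (57.9%). The opposite pair of signs was seen in 12 members (15.8%), against 25.5% of genes. The heart muscle markers had the same signs in their medians, -0.69 for H3K4me3 and 0.42 for H3K27me3, and all 15 lay above 0 in H3K27me3. At their windows of highest H3K4me3 the median of H3K4me3 was -1.12, and 10 of 15, of which 14 had an adjusted p, were called lower. Endocardial and endothelial markers had these signs too, with medians of -0.37 for H3K4me3 and 0.21 for H3K27me3. Of these 10, 9 lay below 0 in H3K4me3 and 8 above 0 in H3K27me3. In the same order, markers of fibroblasts and mural cells had -0.02 and 0.09, and erythroid ones 0.73 and 0.22. Leukocyte (0.39 and -0.15) and epicardial markers (0.82 and -0.18) had the opposite signs. The part of these cell types in the receptors' signs was not tested. The 2 marks' fold changes are not on 1 scale, because the standard errors of H3K4me3 reach at most 0.30, also at windows of few reads, while those of H3K27me3 reach 3.05.

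**Figure D5:**
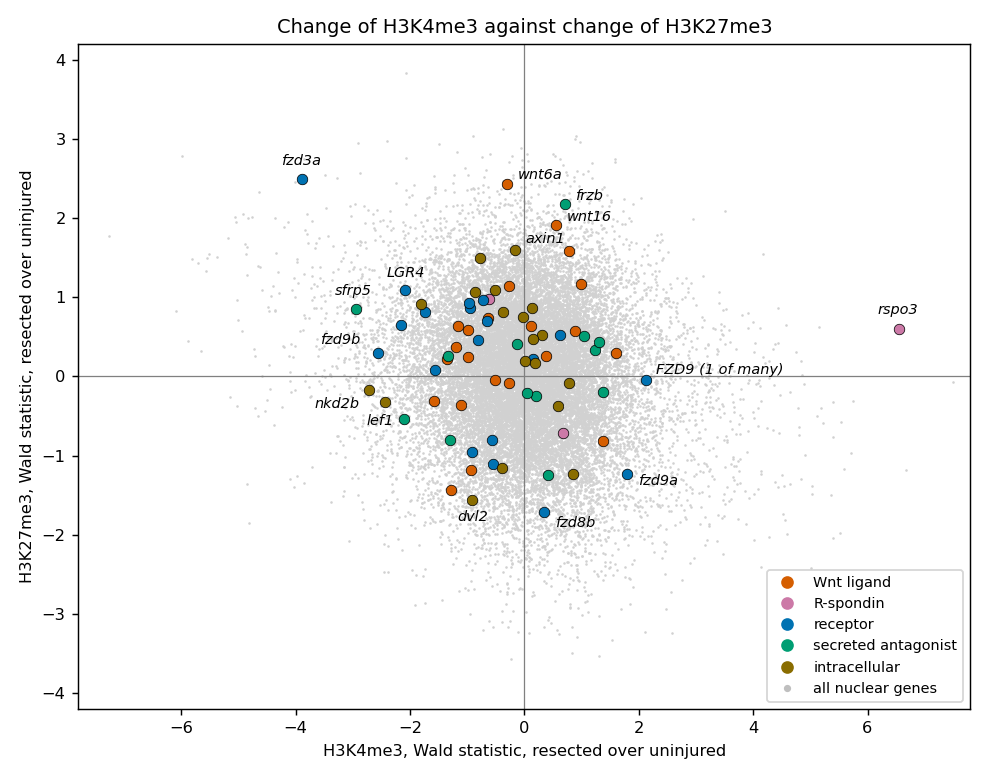
Wald statistic of H3K4me3 (horizontal) against that of H3K27me3 (vertical), resected over uninjured hearts, for 76 members coloured by role, over all nuclear genes in grey. The receptor fzd3a lies far to the upper left (-3.88 and 2.49) and rspo3 far to the right (6.55 and 0.60).

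Of the pathway's other genes, 2 passed the test. A list of other Wnt pathway genes (secretion, receptor turnover, destruction complex, beta-catenin coactivators, co-repressors, planar polarity and common targets) found 63 gene IDs, of which 37 had an adjusted p for H3K4me3. Of these 1 was called higher and 1 lower (2.70% each, against 1.57% and 1.30% of genes). The one that rose was vcanb, which encodes the matrix proteoglycan versican, with a log2 fold change of 1.18 in the authors' deposited table, and the one that fell was prickle3, a planar polarity gene, with -0.97. The list's median was -0.07 for H3K4me3 and 0.01 for H3K27me3, and no gene was called for H3K27me3. Planar polarity genes had 13 of 18 below 0 in H3K4me3, with a median of -0.15. The group of destruction complex genes and kinases, which leaves out axin1 and axin2, had a median of 0.00 over 11 gene IDs.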

How the data were processed

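ChIP-seq signal of H3K4me3 and H3K27me3 was analysed from 1 deposited table per mark, each the authors' comparison of 3 resected with 3 uninjured libraries over 42037 windows. Per the file headers, which match the output of DESeq2, the authors gave each window a mean normalised read count (the signal), a log2 fold change with its standard error on the log2 scale, a Wald score, and a p-value with its adjusted p-value. Tools listed in the submitters' processing notes are DESeq2, MACS2, bedtools 2.26.0, SAMtools, Picard 2.8.1, Bowtie2 2.3.2 and BWA. The notes list 3 builds (danRer10, danRer7, GRCz10) without saying which the windows use. Size factors, read filters and depth per library are not given in the sources used here, so the mean count is the only measure of depth.

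Windows were read with pandas 2.3.3 in Python 3.11.15. Starts were counted from 1. A gene ID was represented by its window of highest H3K27me3 mean count, for both marks, and 22 mitochondrial gene IDs were left out of the genes compared with. A call was the authors' adjusted p under 0.05. Intervals of 95% were taken from the normal distribution and the standard error. The Benjamini-Hochberg adjustment over all windows was tested on simulated data. Named members were those called for either mark, the 10 with the largest Wald statistic per mark and direction, the extremes of level per role, members whose windows differ more than 5-fold, and the 6 widest pairs per mark. A few further members were named after their values were seen (lrp5, lrp6, fzd10 and fzd7b for H3K4me3 change, among others). The members, roles and lists were chosen with earlier results of these data known. Symbols of 74 members' gene IDs were also found in a table of gene names.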

Additional observations from a re-analysis of the deposited data

How the results depend on the processing

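The number of members with higher H3K4me3 stayed at 1 under each of 6 alternatives: another window, any window, no filter on low counts, adjusted p under 0.1 or 0.01, and no overlapping windows. The number with lower H3K4me3, 2, became 1 with p-values adjusted over every window and 1 at an adjusted p under 0.01, both by the loss of fzd4, and 3 at 0.1, where sfrp5 joined. The H3K27me3 counts were 0 under all 6, but no other count was possible. Each member window with a p has an adjusted p of 0.999919 in the authors' DESeq2 test, which already covers every window with a p. The median log2 fold change of every role moved by less than the median standard error of a single gene in that role. That standard error does not measure the spread of a median. The largest move was that of H3K27me3 at intracellular genes, where 0.23 became 0.00 with the window of highest H3K4me3 (median standard error 0.43). With the window of highest H3K4me3, the median H3K4me3 level became 198 at intracellular genes (57.7 at the represented window), 216 at receptors and 52.6 at antagonists, and the median H3K27me3 level 58.2 at receptors. Without windows that overlap another gene's, the median H3K4me3 level was 38.7 at ligands, 174 at receptors and 45.1 at antagonists, and the median H3K27me3 level 76.5, 61.8 and 84.9. A floor of 10 on the H3K4me3 level removed no member. No paired analysis was possible because the tables hold no values per library, and for the same reason leaving out a replicate and a count test with TMM were not run. The mean count limits what can be seen: 37 of 77 members had no adjusted p for H3K4me3.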
